A study of Rattus norvegicus with 65 samples.

Results

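The genes described here carry cells through G2 phase and mitosis, and were followed in primary neonatal rat cardiomyocytes exposed to 3 drugs. They were taken from a list of 42 symbols covering mitotic kinases and cyclins, kinesins, the spindle checkpoint, the kinetochore and cytokinesis. Of these, 40 had a row among the 14554 genes of the deposited count table, and Ccnb2 and Nek2 were not analysed here. The 40 members were split into 9 genes of mitotic entry and 31 genes of later steps. The latter name covers every member not placed with entry, Plk4 and Mki67 included. The list names genes by function and uses no measured value, but it was drawn up with earlier results of these data known. Every member had at least 31 counts in every library, so all 40 were tested and none was lost to a filter on low counts.

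Polyadenylated RNA was sequenced from 65 libraries in 10 groups of 6 or 7. Cells received 10 mM 5-fluorouracil (5FU) in 1% DMSO, 2.5 mM acetaminophen (Ace) in 0.25% DMSO or 1.25 µM doxorubicin (Dox) in 0.25% DMSO for 6 hours or 24 hours. The controls were 1% DMSO (DMSO1) for 5FU and 0.25% DMSO (DMSO2), which served both Ace and Dox. All cells had first been kept in plating medium with serum and were starved of serum overnight before exposure. Cells from hearts of several litters, digested in parallel, went into 1 common suspension that was plated into wells. Each library is such a well, and the p-values therefore measure the spread between those wells only. In such bulk samples, fewer cells of a type and less RNA per cell cannot be told apart.

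Mitosis begins when the kinase Cdk1, bound to a B-type cyclin, is switched on at the end of G2, and it ends when the anaphase-promoting complex destroys that cyclin and the cell is pinched apart by the cytokinesis machinery. The genes for this machinery are transcribed late in the cycle from promoters that hold a cell cycle homology region (CHR), bound by the MuvB core with B-Myb and Foxm1 in dividing cells and by the DREAM complex in resting ones. DNA damage raises p53 and its target p21, encoded by Cdkn1a, which favours the repressing form. Rat cardiomyocytes leave the cell cycle in the first days after birth, while the fibroblasts and endothelial cells of a neonatal heart culture can still divide.

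Library totals ran from 14332827 to 25738297 counts. The 6 cardiomyocyte markers summed to between 24000 and 41700 CPM (counts scaled to the library total, with TMM factors) in the control libraries, which goes with the labelled cell type, and the 7 fibroblast markers summed to between 6480 and 19900 CPM, so other heart cells contributed RNA as well. Library 1 of DMSO1 at 24 hours stood apart: Cdkn1a was at 699 CPM against 95.8 to 114 CPM in the other libraries of its group, and the p53 target Gtse1 was at 88 CPM against 12.4 to 16.3 CPM. Its mean over the members was the highest of its group, at -0.17 against a group range down to -0.43 on a log2 scale, and its Hmmr level was 26.5 CPM against 13.3 to 18 CPM. Library 7 of Ace at 24 hours had the lowest members of its group, with a mean of -0.20 against 0.33 to 0.66 in the others. Both libraries were kept, and counts of members called that changed without them are given both ways.

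The members share promoter letters that the choice of the list did not use. RefSeq (GRCr8) gave a promoter, 250 bases before to 50 after the annotated start, for 33 of the 40 members and for 11403 of the genes tested. The CHR was searched as the letters TTTGAA, as the variant letters TTCGAA and as the variant letters TTTAAA, and the companion box bound by NF-Y as CCAAT, each on both strands. Of the 33 member promoters 32 (97%) held the CHR letters, against 2341 of 11403 (20.5%) over the genes tested, and Kif18a was the exception. TTTGAA alone was in 72.7% of member promoters and 11.7% of all. CCAAT was in 69.7% against 37%, and both were together in 69.7% against 8.07%. Of 44 matches to the CHR letters in the members, 28 began in the 100 bases before the start, 8 after it and 8 further upstream. A match is a description of the letters and not evidence that a factor is bound. The plot of match positions shows the CHR letters gathered close to the start and CCAAT spread upstream of it.

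**Figure D1:**
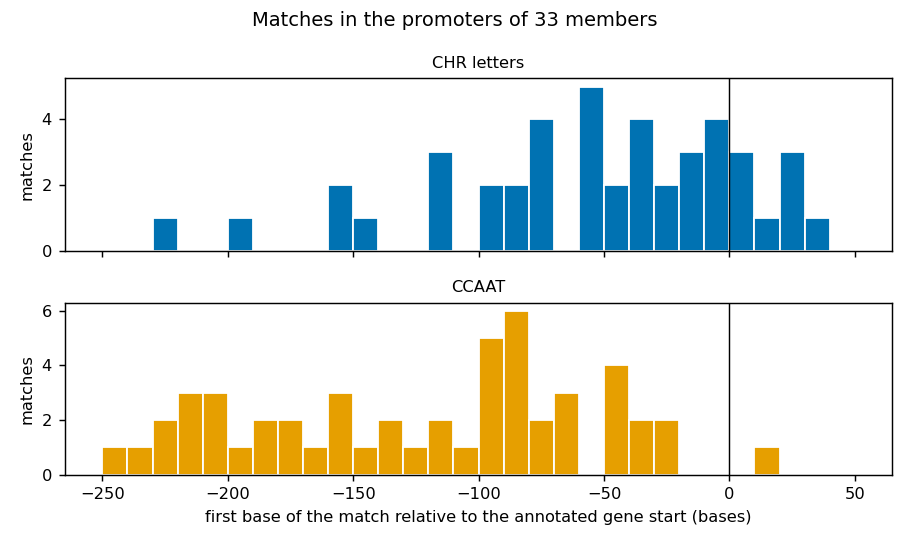
Positions of the CHR letters (44 matches, top) and of CCAAT (51 matches, bottom) in the promoters of 33 members, counted in steps of 10 bases by the first base of the match relative to the annotated start at 0. The median position is 44.5 bases before the start for the CHR letters and 104 bases before it for CCAAT.

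The 120 bases directly before the annotated start are printed for 6 members whose levels moved in different directions after Dox: Cdk1 and Cdc20 were lower at 24 hours, Plk1, Hmmr and Prc1 higher, and Ccnb1 was not called. Capitals mark the CHR letters and CCAAT, in either orientation, so that CCAAT on the other strand reads ATTGG. Entrez Gene identifiers follow the symbols.
Cdk1 (54237), chr20:19265173-19265292, plus strand: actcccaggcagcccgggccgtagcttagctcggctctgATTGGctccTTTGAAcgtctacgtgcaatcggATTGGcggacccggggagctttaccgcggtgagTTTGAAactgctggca
Cdc20 (64515), chr5:137255800-137255919, minus strand: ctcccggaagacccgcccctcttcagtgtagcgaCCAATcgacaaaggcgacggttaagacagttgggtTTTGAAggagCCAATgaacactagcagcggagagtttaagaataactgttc
Ccnb1 (25203), chr2:33655226-33655345, minus strand: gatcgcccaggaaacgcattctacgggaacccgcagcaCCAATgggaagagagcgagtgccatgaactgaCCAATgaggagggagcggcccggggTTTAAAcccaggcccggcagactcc
Plk1 (25515), chr1:186147538-186147657, plus strand: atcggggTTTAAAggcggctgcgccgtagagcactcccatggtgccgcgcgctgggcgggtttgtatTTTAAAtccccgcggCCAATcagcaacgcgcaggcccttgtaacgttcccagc
Hmmr (25460), chr10:25665216-25665335, minus strand: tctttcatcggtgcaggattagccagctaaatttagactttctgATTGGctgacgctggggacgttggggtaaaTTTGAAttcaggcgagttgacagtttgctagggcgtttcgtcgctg
Prc1 (308761), chr1:143659361-143659480, plus strand: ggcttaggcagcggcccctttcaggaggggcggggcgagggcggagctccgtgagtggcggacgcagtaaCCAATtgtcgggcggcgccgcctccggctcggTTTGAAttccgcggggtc
All 6 hold both kinds of letters in this window, whichever way the gene moved. Over the members called at 24 hours of Dox, the CHR letters were in 16 of the 17 higher ones with a promoter and in 7 of the 7 lower ones.

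Seen over all 10 groups, the members were highest in the 6-hour controls and in Ace at 24 hours. The mean over the members, taken on the log2 CPM scale relative to all 65 libraries, ran from 0.51 to 0.93 in DMSO1 and from 0.30 to 0.52 in DMSO2 at 6 hours. It lay between -0.34 and 0.12 in 5FU, between -0.23 and -0.06 in Ace and between -0.06 and 0.22 in Dox at that time, so no drug library reached any library of its own control. At 24 hours it had dropped to between -0.43 and -0.17 in DMSO1 and between -0.69 and -0.41 in DMSO2. The 24-hour 5FU libraries, at -0.48 to -0.15, overlapped their control, and those of Dox, at -0.56 to 0.03, overlapped theirs, while all 7 Ace libraries, at -0.20 to 0.66, lay above theirs. Gene by gene, the highest median was found in DMSO1 at 6 hours for 22 members, in Ace at 24 hours for 8 and in Dox at 24 hours for 7. The lowest median was found in DMSO2 at 24 hours for 13 members and in Dox at 24 hours for 11.

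**Figure D2:**
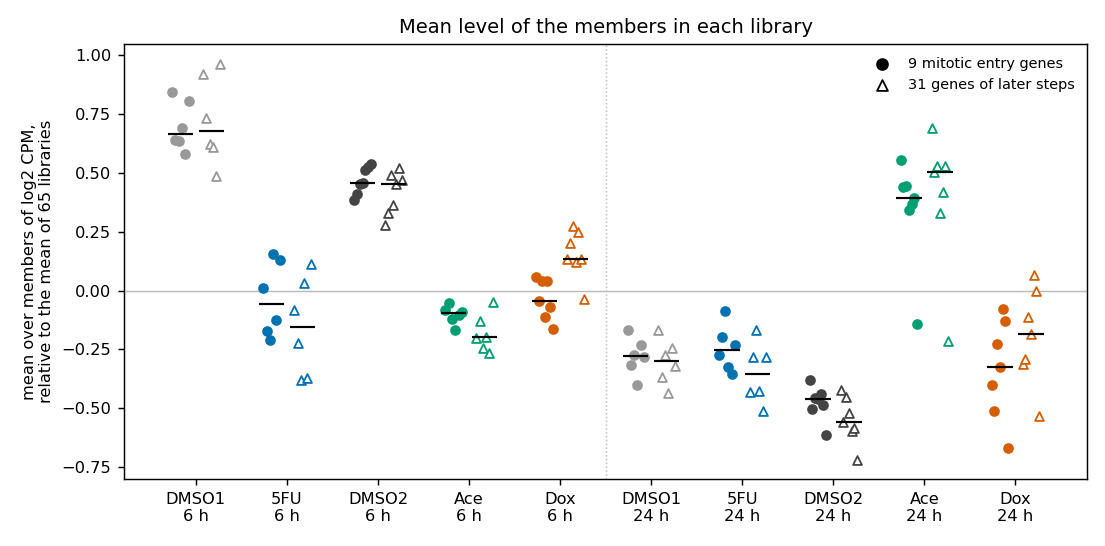
Mean log2 CPM of the 9 mitotic entry genes (filled circles) and the 31 genes of later steps (open triangles) in each library, relative to the mean of the 65 libraries, with the group median as a line. Controls are high at 6 hours and low at 24 hours, and the 24-hour Ace libraries lie above DMSO2 with 1 library lower than the rest.

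Every member was lower in the 24-hour than in the 6-hour controls, which differ in time in culture, in serum-free medium and in DMSO, and these cannot be told apart. With the controls of both strengths averaged, 40 of 40 members were called lower at 24 than at 6 hours, against 31.9% of all genes, where called means FDR below 0.01 in edgeR's quasi-likelihood test over all 14554 genes. The median log2 fold change was -1.07 over the members and 0.01 over all genes. Kif23, a kinesin of the central spindle, dropped most, with a log2 fold change of -1.48 ± 0.07 (FDR = 1.5e-26). Aurkb, the kinase of the chromosomal passenger complex, dropped least, at -0.15 ± 0.04 (FDR = 0.0027). Entry genes had a median of -1.15 and genes of later steps of -1.05. The 7 fibroblast markers were all higher at 24 hours in the controls (7 of 7 called), as were 4 of 5 macrophage, 3 of 5 endothelial and 3 of 5 mural markers and 1 of 6 cardiomyocyte markers. Lower were 1 endothelial, 1 mural (Acta2 at -1.72) and 2 cardiomyocyte markers, and the part of these markers in the members' change was not tested.

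At 6 hours 5FU lowered most of the members and raised none. In 5FU 32 of 40 members (80%) were called lower and 0 higher against DMSO1, while 24.5% of all genes were lower and 23.4% higher. The median was -0.92 over the members and 0.00 over all genes. Cenpf, a kinetochore protein, showed the largest decrease, -2.22 ± 0.19 (FDR = 1.5e-15). Of the entry genes 7 of 9 were lower and of the later genes 25 of 31, and the 8 not called were Ccnf, Cdc25c, Nuf2, Spc25, Aurkb, Birc5, Cdca8 and Espl1. The libraries of the 2 groups did not overlap for 26 members, against 28.2% of all genes.

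Ace at 6 hours also lowered members and raised none. There 26 of 40 (65%) were lower and 0 higher against DMSO2, against 15.2% lower and 16.5% higher over all genes. The median was -0.57 over the members and 0.00 over all genes. Cdc20, which activates the anaphase-promoting complex, dropped most, -1.69 ± 0.12 (FDR = 1.3e-18). Both 5FU and Ace lowered 24 of the same members, out of 32 in 5FU and 26 in Ace. With so many of 40 lower in each drug, a large overlap follows from the counts alone. The same overlap over all genes was not counted. The groups did not overlap for 25 members, against 24.5% of all genes.

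Dox at 6 hours changed the members in both directions. It lowered 21 of 40 (52.5%) and raised 6 (15%), against 32.7% and 31.5% of all genes. The 6 higher members, Espl1, Prc1, Hmmr, Anln, Kif23 and Cdca8, were all among the genes of later steps, which make up 31 of the 40 members. Espl1, the separase that cuts cohesin, rose most, 0.66 ± 0.11 (FDR = 4.9e-07), and Racgap1, a subunit of centralspindlin, dropped most, -1.57 ± 0.09 (FDR = 5.6e-25). Of the 9 entry genes 7 were lower and none higher. Scaling by library size alone moved the median of all genes to -0.15 and gave 24 lower and 3 higher members, with Cdca8, Kif23 and Anln no longer called. The groups did not overlap for 21 members, against 42.6% of all genes.

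**Figure D3:**
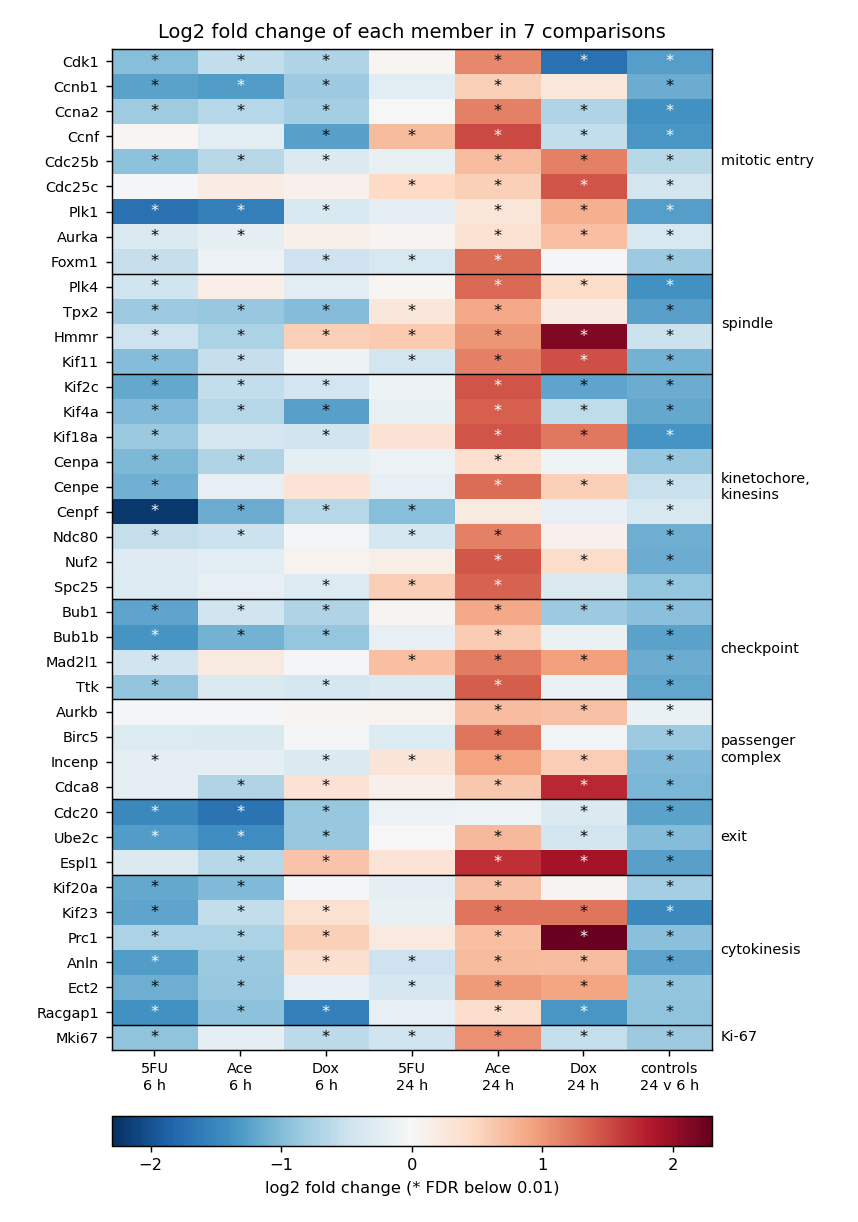
Log2 fold change of the 40 members (rows, by role) for the 3 drugs against their DMSO controls at 6 and 24 hours and for the controls at 24 against 6 hours (columns). Blue is lower, red is higher, and an asterisk marks FDR below 0.01, so that the 6-hour columns read mostly blue, Ace at 24 hours red, and Dox at 24 hours mixed.

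After 24 hours of 5FU most of the members were no longer called. In that comparison 7 of 40 (17.5%) were higher and 7 (17.5%) lower than in DMSO1, against 28% and 27.8% of all genes, with medians of -0.12 and -0.01. The higher members were Ccnf, Mad2l1, Hmmr, Spc25, Cdc25c, Incenp and Tpx2. The lower ones were Cenpf, Anln, Mki67, Kif11, Ndc80, Ect2 and Foxm1. Ccnf, encoding cyclin F, rose most, 0.73 ± 0.12 (FDR = 2.6e-07), and Cenpf dropped most, -0.98 ± 0.18 (FDR = 5e-06). Without library 1 of DMSO1 the counts were 8 higher and 6 lower, and Espl1 became called, at 0.44 ± 0.13 (FDR = 0.0032). The groups did not overlap for 10 members, against 42.9% of all genes.

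Ace for 24 hours raised nearly the whole list. It raised 38 of 40 members (95%) and lowered 0 against DMSO2, where 18.2% of all genes were higher and 19.1% lower. The median was 1.0 over the members and 0.00 over all genes. Espl1 rose most, 1.68 ± 0.12 (FDR = 2e-18), a 3.21-fold difference. Cdc20 (-0.09 ± 0.11, FDR = 0.55) and Cenpf (0.20 ± 0.17, FDR = 0.32) were not called. All 9 entry genes were higher, with a median of 0.71, and so were 29 of 31 later genes, with a median of 1.02. Without library 7 of Ace the count stayed at 38, and the median was 1.11. The groups did not overlap for 27 members, against 26.9% of all genes.

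Dox for 24 hours moved members in both directions, as it did genes at large. It raised 19 of 40 (47.5%) and lowered 10 (25%), against 40.4% higher and 41% lower over all genes, so members were not called more often than genes at large. The medians were 0.21 and 0.00. Library 7 of Dox had the lowest mean over the members, -0.56 against -0.34 for the next, and the largest total of the study, 25738297 counts. Without it 21 members were higher and 9 lower, with a median of 0.31. Prc1, which bundles the microtubules of the central spindle, rose most, 2.28 ± 0.10 (FDR = 4e-30), a 4.86-fold difference. Cdk1 dropped most, -1.71 ± 0.10 (FDR = 2.4e-24), a 3.28-fold difference. Entry genes and later genes both went in both directions, with 4 of 9 higher and 3 lower among the former and 15 of 31 higher and 7 lower among the latter. The groups did not overlap for 22 members, against 68.2% of all genes.

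**Figure D4:**
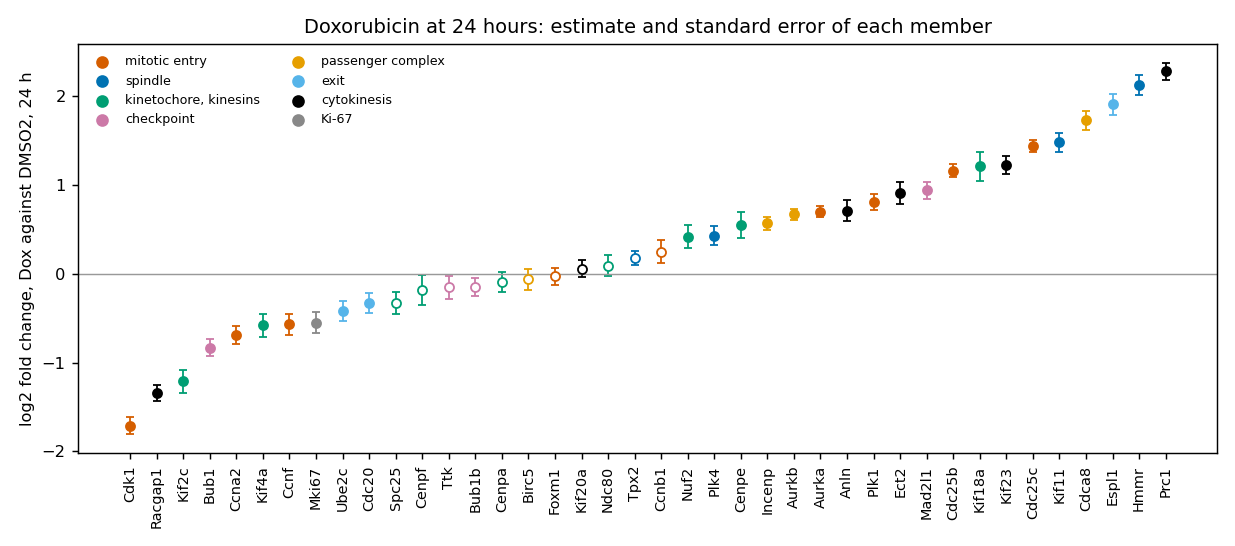
Log2 fold change with its standard error for each member after 24 hours of Dox against DMSO2, ordered by size and coloured by role. Filled points have FDR below 0.01. The estimates run from -1.71 (Cdk1) to 2.28 (Prc1).

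Markers of the other cells in the culture moved in the same comparisons. At 24 hours all 7 fibroblast markers were lower in each drug. Their summed level was 9960 to 19900 CPM in DMSO1 and 5160 to 5830 CPM in 5FU, and it was 15100 to 18900 CPM in DMSO2, 7240 to 9260 CPM in Ace and 1910 to 4060 CPM in Dox. The 5 endothelial markers in the table were lower in 3 of 5 cases in 5FU and in Ace and in 5 of 5 in Dox, where their sum was 20.1 to 45.8 CPM against 233 to 312 CPM in DMSO2, and Cldn5 was at 0 in 5 of 7 Dox libraries. Of the 5 mural markers 3 were lower and 1 higher in 5FU and in Dox, and 4 were lower in Ace. The 5 macrophage markers were lower in 1, 3 and 5 cases in 5FU, Ace and Dox, and Cd163 was at 0 in 3 of 7 Dox libraries. The cardiomyocyte markers were lower in 4 of 6 cases in 5FU, where Tnni3 was higher (0.30 ± 0.08), 2 in Ace and 6 in Dox, where they summed to 7240 to 8990 CPM against 28400 to 39600 CPM. At 6 hours the fibroblast markers were lower in 1, 5 and 5 of 7 cases in 5FU, Ace and Dox, the endothelial ones in 1, 2 and 5 of 5. The mural markers were then 1 higher and 1 lower in 5FU, none called in Ace, and in Dox 2 higher (Acta2 at 1.67 and Myh11 at 1.57) and 2 lower (Pdgfrb at -1.52 and Cspg4 at -1.03). The macrophage markers were lower in 2 cases in 5FU and 1 in Ace, and in Dox 2 were higher (Cd68 at 0.53 and C1qa at 0.61) and 1 lower (Csf1r at -0.46). Of the cardiomyocyte markers 2 were higher and 1 lower in 5FU, none was called in Ace, and 2 were higher and 2 lower in Dox. The part of these shifts in the members' values was not tested.

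Among the entry genes, Cdk1, the kinase that drives cells into mitosis, was lowest in Dox at 24 hours, and its median was lower at 24 than at 6 hours in every treatment but Ace. At 6 hours it was at 39.7 to 49.1 CPM (median 44.4) in DMSO1 and 33.4 to 40.4 CPM (median 35.9) in DMSO2, against 20.2 to 25.5 CPM (median 22) in 5FU, 23.1 to 27.3 CPM (median 24.1) in Ace and 19.5 to 25.6 CPM (median 22.6) in Dox. No 6-hour drug library reached its control. At 24 hours DMSO1 held 15.3 to 19.7 CPM (median 18.1), 5FU 15.3 to 21.7 CPM (median 17.9), DMSO2 13.6 to 17.8 CPM (median 16), Ace 25 to 42.9 CPM (median 33.8) and Dox 3.96 to 6.69 CPM (median 4.87). The 24-hour Dox libraries were below every other library of the study, the Ace libraries were above both controls, and 5FU overlapped DMSO1.

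Ccnb1 encodes cyclin B1, the partner that switches Cdk1 on. Its levels at 6 hours were 29.3 to 40.8 CPM (median 33.3) in DMSO1, 10.4 to 17.9 CPM (median 15.5) in 5FU, 24.6 to 31.5 CPM (median 28) in DMSO2, 10.3 to 13.7 CPM (median 11.6) in Ace and 14.1 to 18.7 CPM (median 15.6) in Dox. All 3 drugs lowered it at 6 hours, Ace with a log2 fold change of -1.29 ± 0.13 (FDR = 3.8e-12). By 24 hours it stood at 14.5 to 17.7 CPM (median 15.5) in DMSO1, 12.2 to 14.9 CPM (median 12.9) in 5FU, 9.74 to 15 CPM (median 12.5) in DMSO2, 9.74 to 23.2 CPM (median 19.1) in Ace and 8.07 to 19.9 CPM (median 14.8) in Dox. Unlike Cdk1 it was not called in Dox at 24 hours (0.25 ± 0.13, FDR = 0.071), and its libraries overlapped those of DMSO2.

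Plk1, the polo-like kinase that promotes entry and spindle assembly, was among the members most lowered at 6 hours by 5FU and Ace. It was at 34.3 to 44.6 CPM (median 36.3) in DMSO1 and 9.71 to 15.5 CPM (median 11.6) in 5FU, and at 29.7 to 34.2 CPM (median 30.7) in DMSO2, 9.76 to 11.6 CPM (median 10.3) in Ace and 21 to 29.2 CPM (median 24.5) in Dox. The log2 fold changes were -1.71 ± 0.10 (FDR = 5.3e-23) in 5FU and -1.57 ± 0.10 (FDR = 5.2e-21) in Ace. After 24 hours it was at 13.5 to 17.9 CPM (median 15.1) in DMSO1, 11.6 to 14.5 CPM (median 13.7) in 5FU, 11.1 to 15 CPM (median 14) in DMSO2, 12.6 to 17.3 CPM (median 17) in Ace and 17.6 to 29.8 CPM (median 22.5) in Dox. The Dox libraries then lay above every DMSO2 library, 0.81 ± 0.09 (FDR = 2.2e-12), while the Ace difference was small, 0.28 ± 0.09 (FDR = 0.0086), and was lost in 8 of 14 fits that left out 1 library.

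Foxm1, a transcription factor of G2/M genes, was at 21.6 to 26.9 CPM (median 25.6) in DMSO1, 15.2 to 19.2 CPM (median 17.1) in 5FU, 17.6 to 21.6 CPM (median 21.2) in DMSO2, 15.2 to 20.7 CPM (median 18.6) in Ace and 11.6 to 16 CPM (median 15) in Dox at 6 hours. Later, at 24 hours, it was at 12.4 to 15.2 CPM (median 13.6) in DMSO1, 9.66 to 13.1 CPM (median 10.1) in 5FU, 9.67 to 13.9 CPM (median 11.2) in DMSO2, 19.7 to 31.4 CPM (median 30) in Ace and 9.04 to 13.4 CPM (median 11.5) in Dox. Only the Ace group stood clear of its control at 24 hours, 1.29 ± 0.09 (FDR = 1.5e-19), and Foxm1 was lower in 5FU, -0.36 ± 0.10 (FDR = 0.0013). Its 24-hour Dox value was near 0 (-0.03 ± 0.09, FDR = 0.79).

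The remaining entry genes split by drug. Ccna2, the cyclin A2 of S and G2 phase, followed Cdk1: it was lower in all 3 drugs at 6 hours, higher in Ace at 24 hours (1.15 ± 0.09, FDR = 9.2e-17) and lower in Dox at 24 hours (-0.69 ± 0.10, FDR = 6.7e-09). Ccnf was the member with its highest median in 5FU at 6 hours, 14.7 to 24.7 CPM (median 19.7). It was not called there, with DMSO1 at 17.8 to 21.4 CPM (median 19.1), and was lower in Dox at both times. The phosphatases that remove the inhibitory phosphates from Cdk1 were higher in Dox at 24 hours but not at 6 hours, when Cdc25b was lower, -0.34 ± 0.07 (FDR = 3.4e-05), and Cdc25c was not called, 0.10 ± 0.06 (FDR = 0.16). Cdc25b was at 38.3 to 43.3 CPM (median 40.4) in Dox at 24 hours against 15.9 to 20.1 CPM (median 17.6) in DMSO2, 1.16 ± 0.07 (FDR = 9.4e-23). Cdc25c was at 41.3 to 52.5 CPM (median 44.6) against 14.3 to 19.4 CPM (median 16.8), 1.44 ± 0.06 (FDR = 1.1e-30). Aurka, the centrosomal Aurora kinase, was also higher in Dox at 24 hours, 0.70 ± 0.06 (FDR = 8.7e-16), and the libraries of these 3 genes did not overlap with DMSO2.

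**Figure D5:**
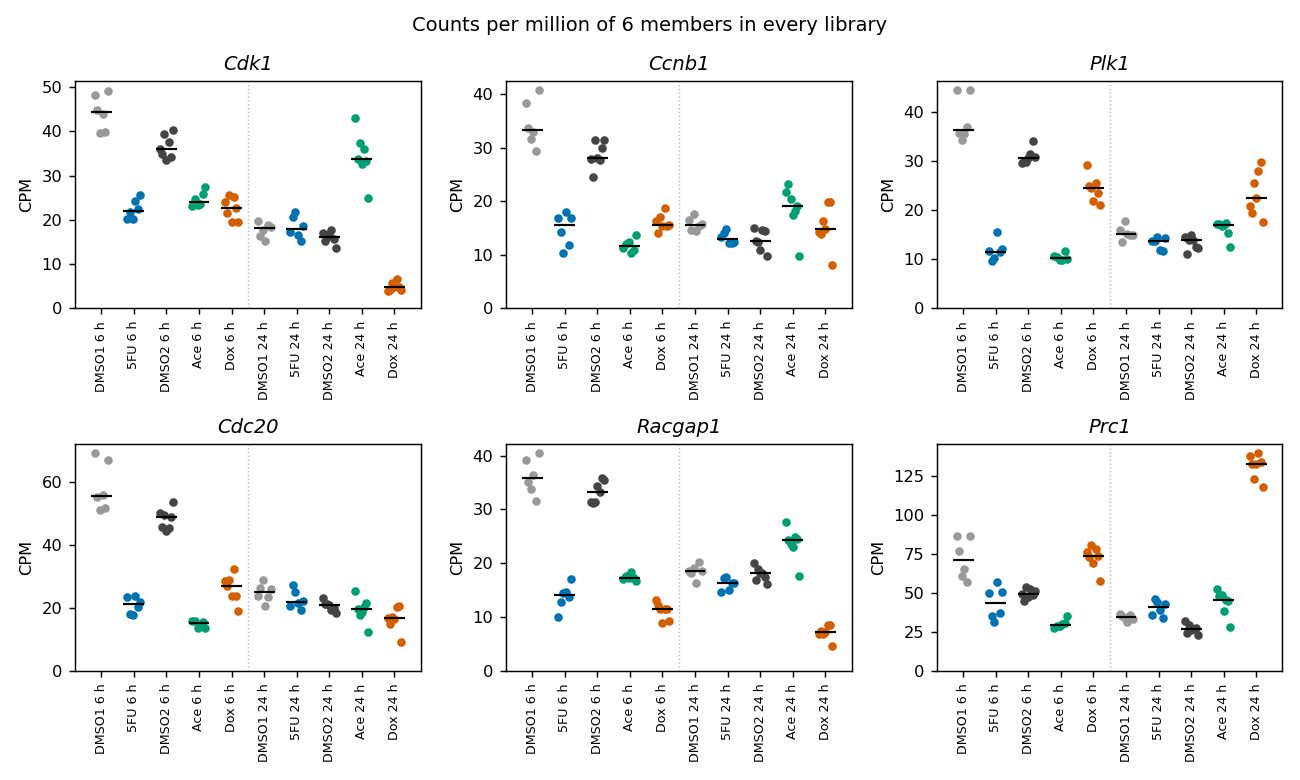
CPM of Cdk1, Ccnb1, Plk1, Cdc20, Racgap1 and Prc1 in every library of the 10 groups, with group medians as lines. In the 24-hour Dox libraries Cdk1 runs from 3.96 to 6.69 CPM and Prc1 from 118 to 140 CPM, on either side of the DMSO2 libraries.

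Spindle genes were led in Dox by Hmmr. Tpx2, which activates Aurora A on spindle microtubules, was at 50.9 to 69.7 CPM (median 57) in DMSO1, 28.4 to 38.8 CPM (median 33.2) in 5FU, 50.7 to 54.6 CPM (median 51.5) in DMSO2, 25.3 to 32.3 CPM (median 28.3) in Ace and 23.8 to 28.5 CPM (median 26.4) in Dox at 6 hours, with each drug below its control. At 24 hours it was at 24.2 to 28.9 CPM (median 25.7) in DMSO1, 27.3 to 34 CPM (median 30.6) in 5FU, 19.5 to 22.8 CPM (median 21.2) in DMSO2, 25.2 to 48.8 CPM (median 40.1) in Ace and 21.5 to 28.7 CPM (median 22.8) in Dox, and was higher in Ace, 0.87 ± 0.08 (FDR = 1.9e-14). Hmmr, a spindle-associated hyaluronan receptor, was higher in all 3 drugs at 24 hours, 0.60 ± 0.12 (FDR = 1.8e-05) in 5FU, 1.02 ± 0.11 (FDR = 1.8e-11) in Ace and 2.13 ± 0.11 (FDR = 1.6e-26) in Dox. Without library 1 of DMSO1, in which Hmmr was high, its 5FU value was 0.76 ± 0.12. Kif11, the motor that separates the poles, was at 26.7 to 48 CPM (median 37.7) in Dox against 11.1 to 16.6 CPM (median 13.9) in DMSO2, 1.48 ± 0.11 (FDR = 1.9e-19). Plk4, which licenses centriole duplication, was higher in Ace (1.30 ± 0.11, FDR = 7.4e-16) and in Dox (0.43 ± 0.11, FDR = 0.00045) at 24 hours.

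The kinetochore genes and their kinesins had the highest median of any role in Ace at 24 hours, 1.35, with 8 of 9 called higher. Cenpe, a motor that brings chromosomes to the spindle equator, was at 21.8 to 50.7 CPM (median 36.6) in DMSO1, 9.67 to 23.3 CPM (median 15.8) in 5FU, 18.3 to 30.3 CPM (median 23.4) in DMSO2, 17 to 27.8 CPM (median 20.5) in Ace and 26.4 to 34.5 CPM (median 29) in Dox at 6 hours. The spread within these groups was wide, and only the 5FU value was called, -1.10 ± 0.16 (FDR = 1.3e-08). By 24 hours it was at 19.2 to 29 CPM (median 21.8) in DMSO1, 17.1 to 22.1 CPM (median 20.4) in 5FU, 17.3 to 19.3 CPM (median 18) in DMSO2, 28.4 to 55.8 CPM (median 46.4) in Ace and 19.2 to 32.4 CPM (median 26.7) in Dox. Ace stood clear of DMSO2, 1.28 ± 0.14 (FDR = 2.3e-11), while Dox was higher with overlapping libraries, 0.55 ± 0.15 (FDR = 0.00052).

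Kif2c, which takes microtubules apart at kinetochores, was lower in Dox at 24 hours, 3.21 to 5.48 CPM (median 3.79) against 7.04 to 10.5 CPM (median 9.31) in DMSO2, -1.21 ± 0.13 (FDR = 4.2e-13). The chromokinesin Kif4a was lower there too, -0.58 ± 0.13 (FDR = 3.4e-05), whereas Kif18a, which limits the length of kinetochore microtubules, was higher, 1.21 ± 0.16 (FDR = 1.8e-10). Cenpa, the histone variant that marks centromeres, was lower in 5FU and Ace at 6 hours at -1.03 ± 0.12 (FDR = 1.2e-11) and -0.69 ± 0.11 (FDR = 6.2e-07), and was not called in Dox at either time. Cenpf varied widely between libraries, from 26.6 to 76.8 CPM in DMSO1 at 6 hours, and was lower in 5FU at both times. The subunits of the Ndc80 complex, which grips microtubules, were all higher in Ace at 24 hours: Ndc80 1.16 ± 0.12 (FDR = 4.4e-13), Nuf2 1.43 ± 0.13 (FDR = 3.8e-15) and Spc25 1.35 ± 0.11 (FDR = 1.8e-16). In Dox at 24 hours Nuf2 was higher, 0.42 ± 0.13 (FDR = 0.0026), while Ndc80 and Spc25 were at 0.09 and -0.33 and were not called.

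The spindle checkpoint holds anaphase back until every chromosome is attached. Bub1b, encoding BubR1, was at 23.8 to 33.7 CPM (median 25.4) in DMSO1, 9.10 to 12.9 CPM (median 9.98) in 5FU, 21.1 to 25.1 CPM (median 22.8) in DMSO2, 9.90 to 12.4 CPM (median 10.9) in Ace and 10.9 to 14 CPM (median 12.6) in Dox at 6 hours, with no overlap between any drug and its control. After 24 hours it was at 9.05 to 12.3 CPM (median 10.8) in DMSO1, 7.84 to 11.3 CPM (median 9.12) in 5FU, 8.34 to 11.7 CPM (median 11.2) in DMSO2, 11 to 19.3 CPM (median 16.6) in Ace and 7.59 to 11.3 CPM (median 9.94) in Dox, and was called in Ace alone, 0.58 ± 0.09 (FDR = 4.2e-07). Its partner kinase Bub1 was lower in Dox at both times, -0.83 ± 0.10 (FDR = 2.2e-11) at 24 hours. Mad2l1, which encodes the inhibitor Mad2, was higher in all 3 drugs at 24 hours, 0.69 ± 0.11 (FDR = 2.9e-07) in 5FU, 1.18 ± 0.10 (FDR = 3e-15) in Ace and 0.94 ± 0.10 (FDR = 1.2e-12) in Dox. Ttk, the checkpoint kinase Mps1, was higher in Ace at 24 hours, 1.40 ± 0.12 (FDR = 7.5e-16).

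The chromosomal passenger complex corrects faulty attachments and was the least lowered role in 5FU at 6 hours, with a median of -0.22. Aurkb was not called in any drug at that time, with 53.4 to 67 CPM (median 60.5) in DMSO1, 50.6 to 72.3 CPM (median 57.4) in 5FU, 49.8 to 56.5 CPM (median 51.5) in DMSO2, 46.2 to 55.6 CPM (median 50.2) in Ace and 49 to 57.7 CPM (median 56.5) in Dox, all overlapping. Later, at 24 hours, it was at 48.4 to 58.9 CPM (median 53.3) in DMSO1, 53.4 to 59.5 CPM (median 56.4) in 5FU, 41.7 to 52.1 CPM (median 49.9) in DMSO2, 66.7 to 89.7 CPM (median 81) in Ace and 70.4 to 82.1 CPM (median 77.3) in Dox. Ace and Dox were both clear of DMSO2, 0.71 ± 0.06 (FDR = 1.3e-15) and 0.67 ± 0.06 (FDR = 1e-15). Among its partners, Birc5 (survivin) was called only in Ace at 24 hours among the drug comparisons, 1.23 ± 0.11 (FDR = 8.3e-15). Incenp was lower in 5FU and Dox at 6 hours and higher in every drug at 24 hours, 0.93 ± 0.07 (FDR = 1.9e-17) in Ace. Cdca8 (borealin) was higher in Dox at both times, 0.34 ± 0.10 (FDR = 0.0028) at 6 hours and 1.73 ± 0.11 (FDR = 9.5e-23) at 24 hours.

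Mitotic exit genes fell hardest at 6 hours in Ace, with a median of -1.42. Cdc20 was at 51.1 to 69.3 CPM (median 55.6) in DMSO1, 17.8 to 23.9 CPM (median 21.3) in 5FU, 44.5 to 53.8 CPM (median 48.9) in DMSO2, 13.7 to 16 CPM (median 15.1) in Ace and 19 to 32.4 CPM (median 26.9) in Dox, each drug below its control. At 24 hours it was at 20.6 to 28.8 CPM (median 25) in DMSO1, 19.3 to 27.2 CPM (median 22) in 5FU, 18.5 to 23.3 CPM (median 21.1) in DMSO2, 12.3 to 25.5 CPM (median 19.7) in Ace and 9.32 to 20.6 CPM (median 16.8) in Dox. Cdc20, with Cenpf, was not called in Ace, and its small decrease in Dox, -0.33 ± 0.11 (FDR = 0.0071), was lost in 8 of 14 fits that left out 1 library. Ube2c, the conjugating enzyme of the same complex, was lower in all 3 drugs at 6 hours (-1.42 ± 0.11, FDR = 2.3e-16 in Ace) and lower in Dox at 24 hours (-0.42 ± 0.11, FDR = 0.00045). Espl1 went against both in Dox, at 28.6 to 54.2 CPM (median 41.2) against 9.84 to 12.1 CPM (median 11.4) in DMSO2, 1.91 ± 0.12 (FDR = 1.7e-22).

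Cytokinesis genes were lower in 6 of 6 cases at 6 hours in 5FU and in Ace, and included the member that rose most in Dox at 24 hours. Anln, a scaffold of the contractile ring, was at 39.1 to 73.1 CPM (median 56.8) in DMSO1, 17.8 to 28.8 CPM (median 23.4) in 5FU, 32.6 to 40.6 CPM (median 35.8) in DMSO2, 17.6 to 21.5 CPM (median 19.9) in Ace and 24.2 to 55.5 CPM (median 48.2) in Dox at 6 hours. It was lower in 5FU and Ace and higher in Dox, 0.37 ± 0.11 (FDR = 0.0037), where library 7 was far below the rest at 24.2 CPM against 45.5 CPM for the next. Without library 7 the value was 0.48, and the call was lost without library 1 of DMSO2 (0.34) or without library 1 (0.34) or 2 (0.32) of Dox. By 24 hours it was at 19.4 to 22.9 CPM (median 21.1) in DMSO1, 11.7 to 18 CPM (median 15.5) in 5FU, 15.8 to 20.4 CPM (median 18.6) in DMSO2, 20.8 to 35.1 CPM (median 31.3) in Ace and 22.7 to 35.2 CPM (median 30.2) in Dox. Ace and Dox were above DMSO2, 0.73 ± 0.12 (FDR = 6.7e-07) and 0.71 ± 0.12 (FDR = 3e-07), and 5FU was below DMSO1, -0.47 ± 0.14 (FDR = 0.002).

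Prc1 reached 118 to 140 CPM (median 133) in Dox at 24 hours against 22.9 to 31.8 CPM (median 27) in DMSO2, above every other library of the study. Kif23 and Racgap1, which together form centralspindlin, moved in opposite directions in Dox: Kif23 was higher at 24 hours, 1.23 ± 0.10 (FDR = 5.7e-17), and Racgap1 was at 4.64 to 8.60 CPM (median 7.17) against 16.2 to 20 CPM (median 18.2), -1.34 ± 0.09 (FDR = 4.8e-21). Ect2, the exchange factor that centralspindlin recruits to switch on RhoA, was higher in Dox, 0.91 ± 0.12 (FDR = 3.5e-10). Kif20a, a kinesin of the midzone, was lower in 5FU and Ace at 6 hours at -1.18 ± 0.11 (FDR = 9.8e-15) and -1.02 ± 0.10 (FDR = 2.6e-12), and was not called in Dox at either time.

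Mki67 encodes Ki-67, which coats mitotic chromosomes and marks cycling cells. At 6 hours it was at 104 to 181 CPM (median 143) in DMSO1, 48.2 to 105 CPM (median 72.8) in 5FU, 80.3 to 135 CPM (median 108) in DMSO2, 81.5 to 103 CPM (median 90.7) in Ace and 58.8 to 83.3 CPM (median 73.2) in Dox. After 24 hours it was at 65.2 to 83.9 CPM (median 71.6) in DMSO1, 48.2 to 57.5 CPM (median 53.9) in 5FU, 54.2 to 74.3 CPM (median 65.8) in DMSO2, 89.4 to 154 CPM (median 141) in Ace and 34.5 to 55.9 CPM (median 43.4) in Dox. Ace was above both controls at 24 hours, 1.05 ± 0.12 (FDR = 2.3e-11), while 5FU and Dox were lower, -0.45 ± 0.13 (FDR = 0.0017) and -0.55 ± 0.12 (FDR = 3.7e-05).

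How far each drug's effect changed with time was tested as the difference between its 24-hour and 6-hour contrasts. For Ace 40 of 40 members had a higher effect at 24 hours, against 5.58% of all genes, with a median difference of 1.63. Espl1 changed most, 2.33 ± 0.17. Of the 26 members lower at 6 hours, 24 were higher at 24 hours, and the share of all genes with that change was not counted. For 5FU 33 of 40 were higher, against 20.3% of all genes, with a median of 0.86, and Plk1 changed most, 1.49 ± 0.14 (FDR = 1.1e-13). Without library 1 of DMSO1 at 24 hours the 5FU count was 32. For Dox 24 of 40 were higher and 2 lower, against 34% and 30.8% of all genes. Prc1 changed most, 1.73 ± 0.14 (FDR = 2.8e-17), and the 2 that went further down were Cdk1, -1.02 ± 0.13 (FDR = 3.6e-10), and Kif2c, -0.77 ± 0.17 (FDR = 5.4e-05). Scaling by library size alone moved the median of all genes from 0.07 to 0.27 and gave 28 higher and 2 lower. In each case the control itself fell between the times, so a higher effect need not be a rise in level of that size. The median Plk1 level in 5FU was 11.6 CPM at 6 hours and 13.7 CPM at 24 hours, while that in DMSO1 went from 36.3 to 15.1 CPM.

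Dox and Ace, which share their control, were compared directly. At 6 hours 18 of 40 members were higher in Dox and 6 lower, against 30.6% and 31.4% of all genes. Scaling by library size alone moved the median of all genes to -0.11 and gave 14 higher and 10 lower. Espl1 had the largest difference, 1.31 ± 0.12 (FDR = 8.8e-15), and Ccnf the lowest, -1.01 ± 0.12 (FDR = 1.3e-11). At 24 hours 8 were higher in Dox and 22 lower, against 40.7% and 39.9% of all genes. Cdk1 was 7.04-fold lower, -2.82 ± 0.10 (FDR = 3.8e-36), and Kif2c was 6.29-fold lower, -2.65 ± 0.12 (FDR = 2.6e-29). The 8 higher members were Prc1, Hmmr, Cdca8, Cdc25c, Plk1, Cdc25b, Aurka and Kif11, with Prc1 at 1.58 ± 0.10 (FDR = 6.8e-23). Without library 7 of Ace the 24-hour counts were 7 higher and 26 lower.

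The effects of Dox and Ace were also set against that of 5FU, each relative to its own control. The Dox effect at 6 hours was higher for 21 members and lower for 1, against 22% and 24% of all genes, and that 1 was Ccnf, -1.27 ± 0.16 (FDR = 2e-10). Later, at 24 hours, it was higher for 16 and lower for 7, against 35.8% and 35.4% of all genes, from Cdk1, -1.77 ± 0.14 (FDR = 3.6e-18), to Prc1, 2.05 ± 0.15 (FDR = 1.6e-19). The Ace effect at 6 hours was higher than that of 5FU for 11 members and lower for none, against 17.1% of all genes. Its median difference was 0.23, and at that time DMSO1 lay above DMSO2 by a median of 0.27 over the members. The mean over the members had a median of -0.14 in 5FU and -0.18 in Ace. A difference between such effects also holds the difference between the 2 controls, and the part of each was not tested. At 24 hours it was higher for 37 of 40, against 19.1% of all genes, with Ttk at 1.73 ± 0.18 (FDR = 3.9e-12). The 3 not called were Cdc20, Cdc25c and Hmmr. Without library 1 of DMSO1 at 24 hours, the 24-hour counts were 34 higher for Ace, and 16 higher and 8 lower for Dox. Without library 7 of Ace at 24 hours, 38 were higher for Ace.

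Some members were higher in the stronger DMSO control at 6 hours. Against DMSO2, DMSO1 had 13 of 40 members higher (32.5%) and none lower, against 9.87% of all genes higher, and Anln differed most, 0.69 ± 0.12 (FDR = 8.2e-06). This count rested on single libraries and on the scaling: it was 5 without library 1 or library 6 of DMSO1, 8 without library 1 of DMSO2, and 2 with scaling by library size alone. The 7 fibroblast markers were lower in DMSO1 in 6 of 7 cases and the endothelial ones in 5 of 5. Of the mural markers, Acta2 was higher (1.79), and Pdgfrb (-0.51) and Rgs5 (-0.63) were lower. Among cardiomyocyte markers only Actc1 was called, higher at 1.03, and no macrophage marker was called. The part of these markers was not tested. At 24 hours 0 of 40 were called, against 0.433% of all genes in either direction, although the median was 0.23 over the members and -0.01 over all genes. DESeq2 called 1.

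Of 34 other G2/M genes in the table, chosen by role, the 6-hour counts were 9 higher and 11 lower for 5FU, 7 and 8 for Ace, and 13 and 11 for Dox. As shares these were 26.5% and 32.4% for 5FU, 20.6% and 23.5% for Ace, and 38.2% and 32.4% for Dox, against 23.4% and 24.5%, 16.5% and 15.2%, and 31.5% and 32.7% of all genes, so the 5FU and Dox shares were near those of the whole table. The 24-hour counts were 17 and 2 for 5FU (50% and 5.88%, against 28% and 27.8% of all genes), 23 and 1 for Ace (67.6% and 2.94%, against 18.2% and 19.1%), and 23 and 6 for Dox (67.6% and 17.6%, against 40.4% and 41%). Cdkn1a, whose product p21 inhibits cyclin-dependent kinases, was higher in all 3 drugs at both times, most in Dox at 24 hours, 3.44 ± 0.23 (FDR = 3.2e-21). Its 24-hour level was at least 908 CPM in every Dox library and at most 116 CPM in every DMSO2 library. The call in Ace at 6 hours, 0.70 ± 0.22 (FDR = 0.0088), was lost whichever Ace or DMSO2 library was left out. The Cdkn1a levels did not overlap there, at 225 to 241 CPM in Ace and 134 to 155 CPM in DMSO2. Its standard error came from 1 fit of all 10 groups, which held library 1 of DMSO1 at 24 hours with 699 CPM. That library stayed in every fit of this comparison that left out 1 Ace or DMSO2 library. It was absent from the fit of the compared groups only, whose Cdkn1a value is not given here. Gtse1, a G2-phase p53 target, was higher in 5FU and Dox at both times, 1.81 ± 0.22 (FDR = 2.9e-10) in 5FU at 6 hours and 4.01 ± 0.23 (FDR = 7.9e-25) in Dox at 24 hours, and in Ace at 24 hours only, 1.52 ± 0.22 (FDR = 4.8e-08). At 24 hours of 5FU, Cdkn1a was at 2.10 ± 0.24 (FDR = 1.6e-11) with all libraries and at 3.04 ± 0.10 without library 1 of DMSO1, and Gtse1 at 2.19 ± 0.23 (FDR = 9.2e-13) and 3.08 ± 0.12.

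Wee1 and Pkmyt1 encode the kinases that hold Cdk1 inactive. Wee1 was higher at 6 hours in 5FU, 0.35 ± 0.07 (FDR = 2.9e-05), and Dox, 0.66 ± 0.07 (FDR = 1.4e-13), and was not called in any drug at 24 hours. Pkmyt1 was higher at 24 hours in Ace, 1.11 ± 0.10 (FDR = 2.2e-14), and Dox, 0.82 ± 0.10 (FDR = 1.1e-10). It was higher at 6 hours too in Ace, 0.37 ± 0.10 (FDR = 0.0022), and in 5FU, 0.32 ± 0.10 (FDR = 0.0064), where the call was kept in 5 of 12 fits that left out 1 library. Mybl2, encoding the B-Myb that joins MuvB in dividing cells, was at 54 to 78.4 CPM (median 72) in Dox at 24 hours against 8.44 to 10.1 CPM (median 9.66) in DMSO2, 2.89 ± 0.09 (FDR = 5.8e-39), while Rbl1, encoding the p107 found in DREAM, was lower in Dox, -0.38 ± 0.11 (FDR = 0.00087), and higher in Ace, 0.80 ± 0.10 (FDR = 5.2e-10). Top2a, the topoisomerase that untangles chromosomes and a target of Dox, was at 13.4 to 21.5 CPM (median 15.6) in Dox against 30.6 to 41.4 CPM (median 36.7) in DMSO2 and 70.8 to 135 CPM (median 117) in Ace, with -1.15 ± 0.10 (FDR = 6.8e-16) in Dox and 1.57 ± 0.10 (FDR = 2.1e-21) in Ace.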

How the data were processed

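The authors aligned reads to the Ensembl rat transcriptome with kallisto 0.46.0, used tximport to sum transcript estimates by Entrez gene, and left out genes that were low in all samples. The deposited table holds estimated counts per gene for 65 libraries, written as whole numbers. The authors' differential expression results were not used. All 14554 genes reached 10 counts in 1 or more libraries and were fitted together in edgeR 4.0.16 (R 4.3.3), as 10 groups with TMM factors (0.8588 to 1.069) and the quasi-likelihood F-test (55 residual degrees of freedom). Contrasts were called at FDR below 0.01 (Benjamini-Hochberg over all genes) and errors of log2 fold changes are standard errors (SE). The step was tested on simulated data. CPM use TMM-scaled totals and are not divided by gene length, so levels were not compared between genes. Totals of 14332827 to 25738297 counts set the precision of low genes. Symbols came from RefSeq (GRCr8) for 14009 genes. Genes were named by the rule that every member is named with a value, that values of all groups are given for Cdk1, Ccnb1, Plk1, Foxm1, Tpx2, Cenpe, Bub1b, Aurkb, Cdc20, Anln and Mki67, and that the called members with the largest increase and decrease are named in each drug comparison. The members and lists were chosen with earlier results of these data known. Alternatives were DESeq2 1.42.0 (the test and its size factors), library size scaling, other filters, a fit of the compared groups only, FDR below 0.1, TTTGAA as the only CHR letters and leaving out each library. Leaving out a library that stood apart from its group was added after seeing the data.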

Additional observations from a re-analysis of the deposited data

Results flagged for a closer look

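Of 140 checks of a group for a single library far from the others, 11 found one, where chance gives about 1 in 20. Library 7 of Ace at 24 hours was the lowest of its group in the mean over the members (-0.20, next 0.33), and in Ccnb1 (9.74 CPM, next 17.5), Plk1 (12.6 CPM, next 15.3), Foxm1 (19.7 CPM, next 29.1), Anln (20.8 CPM, next 29.4) and Mki67 (89.4 CPM, next 127). Library 1 of DMSO1 at 24 hours was the highest of its group in Cdkn1a (699 CPM, next 114) and Gtse1 (88.0 CPM, next 16.3). Library 6 of DMSO2 at 6 hours was the highest in Plk1 (34.2 CPM, next 31.4). Library 7 of DMSO2 at 24 hours was the lowest in Bub1b (8.34 CPM, next 10.3), and library 7 of Dox at 6 hours in Anln (24.2 CPM, next 45.5).

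The effect of each drug differed between 24 and 6 hours in edgeR's test of the difference, for 33 members in 5FU (Plk1 by 1.49), 40 in Ace (Espl1 by 2.33) and 26 in Dox (Prc1 by 1.73), on the log2 scale.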

How the results depend on the processing

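No paired analysis was possible because the columns of the count table carry no replicate numbers. Of 465 called values of single genes, 0 changed direction under any alternative. Library size scaling lost 24 of these calls, the fit of the compared groups only 10 and DESeq2's size factors 7. The filterByExpr filter lost 6 and the DESeq2 test 4. Values not called became called in 7 cases with library size scaling, 9 with the compared groups, 1 with the size factors and 2 with the DESeq2 test. Without some library 39 called values lost their call. In the drug comparisons these were Incenp (-0.26 to -0.18 without 1 library) in 5FU at 6 hours, Aurka (-0.24 to -0.19) in Ace at 6 hours, Kif18a (-0.52 to -0.37), Spc25 (-0.34 to -0.26), Cdca8 (0.30 to 0.40) and Anln (0.32 to 0.48) in Dox at 6 hours, Tpx2 (0.22 to 0.31), Ndc80 (-0.46 to -0.33), Anln (-0.51 to -0.39) and Ect2 (-0.42 to -0.34) in 5FU at 24 hours, Plk1 (0.24 to 0.34) and Cenpa (0.33 to 0.49) in Ace at 24 hours, and Nuf2 (0.36 to 0.54) and Cdc20 (-0.38 to -0.19) in Dox at 24 hours.

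At FDR below 0.1 the members called were 23 in place of 14 for 5FU at 24 hours, 29 in place of 13 for DMSO1 against DMSO2 at 6 hours, 7 in place of 0 at 24 hours, and 21 in place of 11 for the Ace minus 5FU effect at 6 hours. DMSO1 against DMSO2 at 6 hours gave 2 with library size scaling and 5 to 19 without 1 library, and at 24 hours DESeq2 gave 1 and leaving out 1 library 0. TTTGAA alone was in 72.7% of member promoters and 11.7% of all. The causes were not tested.

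Of 74 values not called, 16 changed sign, none larger than 0.12 in size. With library size scaling Ccnf was at -0.043 in 5FU at 6 hours, and in Dox at 6 hours Cdc25c at -0.055, Aurka at -0.035, Nuf2 at -0.074 and Aurkb at -0.09. With DESeq2 and with its size factors, Mad2l1 was at 0.009 and Birc5 at 0.01 in Dox at 6 hours and Foxm1 at 0.015 in Dox at 24 hours, where library size gave 0.023 and the filterByExpr filter 0.002. That filter put Ube2c at 0.01 in 5FU at 24 hours. Without 1 library the values in 5FU at 6 hours ran from -0.041 to 0.098 for Ccnf, -0.081 to 0.023 for Cdc25c and -0.092 to 0.015 for Aurkb. In Dox at 6 hours they ran from -0.061 to 0.016 for Ndc80, -0.065 to 0.019 for Mad2l1 and -0.081 to 0.041 for Birc5. In 5FU at 24 hours they ran from -0.011 to 0.116 for Cdk1, -0.069 to 0.076 for Ccna2, -0.014 to 0.118 for Plk4 and -0.066 to 0.105 for Ube2c. In Dox at 24 hours they ran from -0.07 to 0.055 for Foxm1 and -0.121 to 0.016 for Birc5.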
